A study of Mus musculus with 4 samples.

Results

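WNT and R-spondin signalling in the fetal ovary was followed through 8 genes: the WNT ligands Wnt4 and Wnt6, the R-spondin Rspo1, its receptor Lgr5, the feedback genes Axin2 and Znrf3, the transcription factor Lef1 and the secreted WNT antagonist Sfrp1. They were chosen by name and are 8 of the 19321 genes in the deposited table. Gonads of XX C57BL/6 mice were taken on 4 days of gestation (E11.5, E12.5, then E13.5 and last E14.5), dissociated and read cell by cell in droplets with the version 2 3′ kit of 10x Chromium. There was 1 library per stage and no treatment or mutation is named. The number of embryos in a library is not given in the sources used here. Stage and library cannot be told apart, so no test between stages was possible. Classes were set side by side within each library, and no test of classes over the 4 libraries was run, since each is of another stage.

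WNT ligands bind Frizzled and LRP receptors and stop the breakdown of beta-catenin, which then works with TCF and LEF factors such as LEF1 on target genes. R-spondins bind LGR receptors and hold back ZNRF3 and RNF43, membrane enzymes that remove Frizzled from the cell surface, so they raise the response of a cell to WNT. AXIN2, a scaffold of the beta-catenin destruction complex, and ZNRF3 are induced by the pathway and damp it, and SFRP1 binds WNT ligands outside the cell. In the XX gonad of the mouse, WNT4 and RSPO1 are known for their part in directing the supporting cells to the ovarian fate.

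Cells were assigned to 4 classes by marker transcripts, none of them a gene of the set. Supporting cells carried at least 2 of Fst, Irx3 and Runx1, surface epithelium Upk3b with Krt19 or Krt7, interstitial cells Col1a1 with Tcf21, and germ cells at least 3 of Dazl, Ddx4, Dnd1, Mael, Dppa5a and Mov10l1. A cell that met the rules of more than 1 class was left out of all of them. Of 18981 cells, 5401 were supporting, 2175 surface epithelium, 1331 interstitial and 3833 germ cells, 5111 met no rule and 1130 met several. In stage order there were 1498, 1767, 1555 and 581 supporting, 640, 641, 471 and 423 surface epithelium, 305, 209, 599 and 218 interstitial and 235, 602, 714 and 2282 germ cells. The libraries held 69458291 to 80377418 unique molecular identifiers (UMIs, counted molecules), and the median UMIs per cell ranged from 9764 to 13999.5 over the 4 stages in supporting cells and from 15369 to 31106 in germ cells.

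Genes outside the rules were used to check the class names. Supporting cells held 252 to 427 counts per 1000000 UMIs (CPM) of Kitl, the KIT ligand, against 41.1 to 158 in surface epithelium and 3.18 to 33.6 in the other 2 classes. Foxl2, a defining factor of pre-granulosa cells, was at 0 to 0.311 CPM in supporting cells and could not serve as a check. Supporting levels of the other check genes for this class, Amhr2, Gata4 and Nr5a1, are not given here, so Kitl alone is shown as a check. Lhx9 was at 451 to 536 CPM in surface epithelium against 184 to 256 in supporting cells, while the mesothelial gene Msln was at 0 to 1.91 CPM there. Nr2f2 was at 307 to 382 CPM in interstitial cells against 77.4 to 118 in surface epithelium, and Pou5f1 at 139 to 179 CPM in germ cells against 0.657 to 4.45 in the others. The classes were not free of RNA of other cells. The 7 globin genes of erythroid cells together gave 1138 CPM in the E11.5 supporting cells and 14214 in those of E14.5, and 1020.3 to 4942 in germ cells. Leaving out the globin UMIs, or the cells that met an endothelial, immune or erythroid rule, was tried for the genes of the set only. Neither change ended a call of these genes between E11.5 and E14.5, or a call between classes that held in every library. Other calls, such as those of genes outside the set or of classes within a single library, were not rerun in this way. 175 barcodes occurred in more than 1 library.

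Levels are in CPM, from the summed UMIs of all cells that share a class and a library. Values in parentheses are exact 95% intervals (Poisson for levels, the binomial split for log2 ratios, Clopper-Pearson for shares of cells), and they cover counting error only. In place of a test, a difference is said to meet the size rule, or a gene to have risen or fallen, when it had at least 50 UMIs over both groups, at least 20 CPM in the higher group, a ratio of 2 or more, and intervals with no overlap. The share of all genes that met the same rule is printed beside the counts. As a measure of free RNA, the genes were also read in 283 immune or erythroid cells outside the 4 classes, taken as cells that should lack WNT4, RSPO1 and LGR5. The globin genes together gave 183376 to 470690 CPM in them over the stages. That leaves fewer UMIs for other genes, so the free RNA read there can be too low. In these cells, at a median of 17666 UMIs, Wnt6 had a UMI in 4.95% of cells thinned to 5000 UMIs (2.73 to 8.16), and the other 7 genes in 0.353% to 2.47%.

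**Figure D1:**
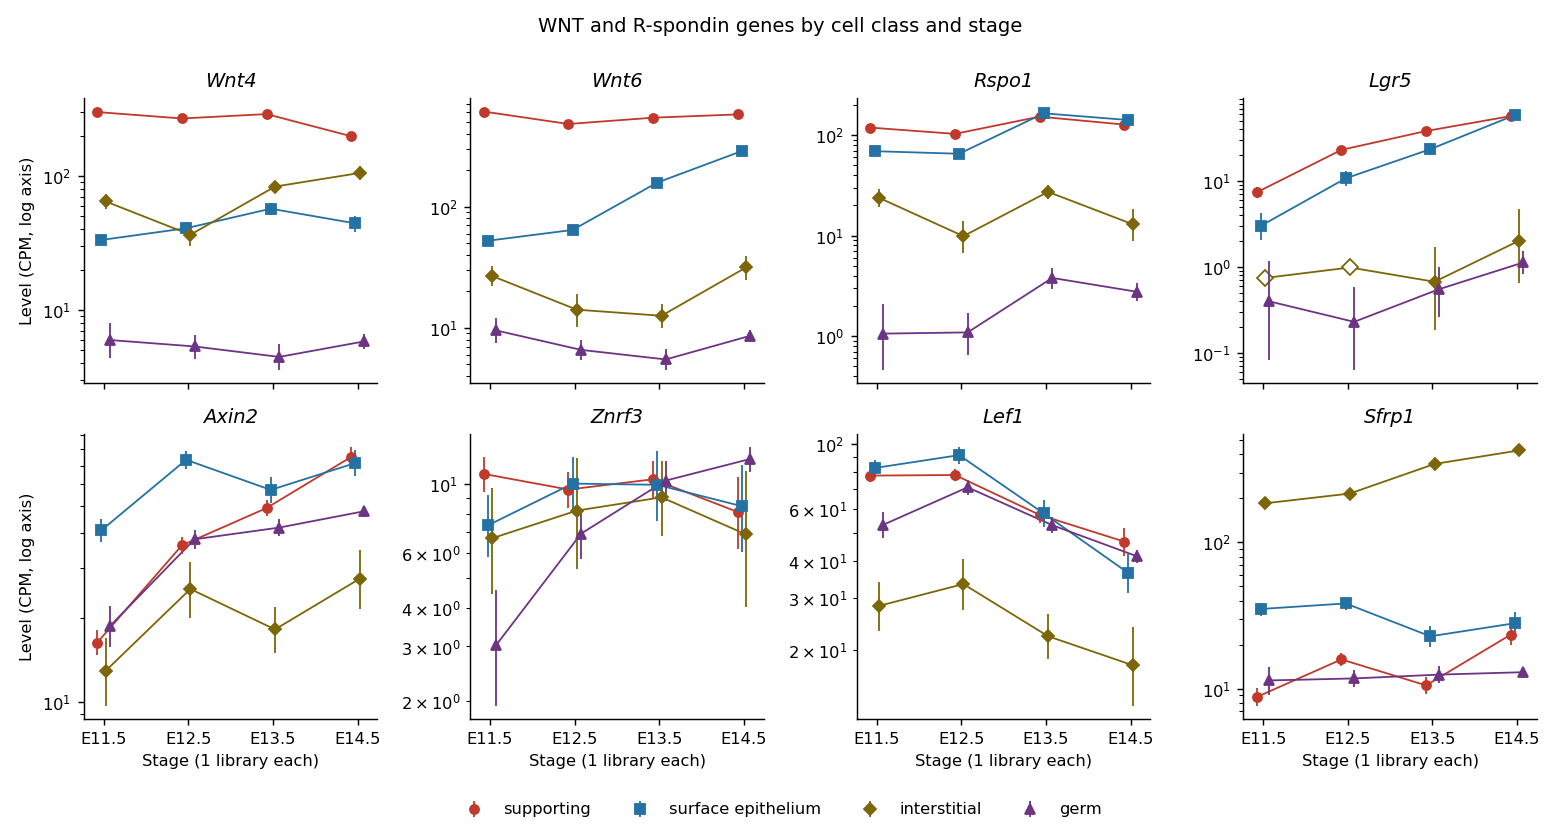
Level of each gene in CPM (log axis, 1 panel per gene with its own scale) at the 4 stages, in supporting, surface epithelium, interstitial and germ cells. Bars are exact 95% Poisson intervals and open symbols mark a count of 0, drawn at the limit of 3 UMIs. Wnt4 and Wnt6 are highest in supporting cells at every stage, Sfrp1 in interstitial cells, and Lgr5 is higher at each later stage in supporting cells and surface epithelium.

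The ligands Wnt4 and Wnt6 were both highest in supporting cells in all 4 libraries. Wnt4 (chr4:137277635-137299501, build GRCm38) stood at 302, 270.1, 291 and 199 CPM in supporting cells over the 4 stages. It stood at 33.3, 40.8, 57.1 and 44.3 CPM in surface epithelium and at 64.7, 36.5, 83.6 and 106 CPM in interstitial cells. The supporting level was 9.06, 6.63, 5.10 and 4.49 times that of surface epithelium in stage order. Against interstitial cells the ratio was 4.67, 7.41, 3.49 and 1.88, so the rule was met in the first 3 stages and missed at E14.5. There the supporting level had its lowest value and the interstitial level its highest. Between E11.5 and E14.5 Wnt4 had a log2 change of -0.60 (-0.69 to -0.52) in supporting cells, 0.41 (0.16 to 0.66) in surface epithelium and 0.71 (0.45 to 0.96) in interstitial cells, and none of these met the rule. In thinned cells, Wnt4 had a UMI in 70.4%, 66.0%, 66.4% and 52.7% of supporting cells, and in 91.2%, 89.1%, 85.5% and 75.9% without thinning. The thinned shares in interstitial cells were 19.7%, 13.9%, 29.9% and 33.9%.

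Wnt6 (chr1:74754342-74785322) was at 610.4, 482, 543 and 578 CPM in supporting cells, where its log2 change between E11.5 and E14.5 was -0.08 (-0.13 to -0.03). In surface epithelium it rose from 52.4 CPM (48.1 to 57.0) through 64.3 and 158 to 288 CPM (273 to 304), a log2 change of 2.46 (2.32 to 2.60) or 5.50-fold. The share of thinned surface epithelium cells with a Wnt6 UMI was 18.4%, 22.5%, 40.1% and 66.2%, and 40.0%, 43.7%, 60.3% and 81.1% without thinning, while the share in supporting cells stayed between 88.1% and 91.6%. The ratio of the supporting to the surface epithelium level was therefore 11.6, 7.49, 3.43 and 2.005 in stage order, the last of these at the edge of the rule. Interstitial cells held 26.8, 14.1, 12.6 and 31.6 CPM and 9.18%, 8.13%, 6.01% and 10.6% of thinned cells with a UMI, shares whose intervals overlap that of the immune and erythroid cells. Of the supporting check genes outside the class rules, Kitl stood at 41.1, 139.5, 110.0 and 158 CPM in surface epithelium, Amhr2 at 256, 167, 182 and 226, Gata4 at 93.1, 84.5, 103 and 80.6, Nr5a1 at 42.6, 35.0, 50.8 and 46.9 and Foxl2 at 0. Of the supporting rule genes, of which a cell of this class can carry at most 1, Irx3 stood at 4.91, 20.3, 47.2 and 77.0 CPM over the stages, Runx1 at 10.8, 15.5, 15.9 and 27.2, and Fst at 3.21, 3.27, 4.01 and 3.82. Irx3, Runx1 and Kitl had their highest level at E14.5, as Wnt6 did. The part of these genes in the rise of Wnt6 there was not tested.

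Germ cells carried Wnt4 at 5.95, 5.32, 4.44 and 5.80 CPM and Wnt6 at 9.51, 6.58, 5.49 and 8.61 CPM. Immune and erythroid cells held 3.19 to 26.1 and 7.98 to 27.8 CPM. The thinned shares in germ cells, 2.55%, 1.99%, 1.96% and 2.98% for Wnt4 and 4.68%, 3.49%, 2.52% and 4.16% for Wnt6, lay at the background level, and neither ligand is read as expressed in germ cells here.

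Rspo1 (chr4:124986401-125009102), which encodes the R-spondin of the ovary, was shared between supporting cells and surface epithelium. Supporting cells held 118, 103, 152 and 127 CPM and surface epithelium 69.0, 65.1, 164 and 141 CPM. The supporting level was the higher at E11.5 and E12.5 and the lower at E13.5 and E14.5, with ratios of 1.72, 1.58, 0.927 and 0.901, none of which met the rule. In surface epithelium Rspo1 rose, with a log2 change of 1.03 (0.88 to 1.18) between E11.5 and E14.5, and the step from E12.5 to E13.5 alone came to 1.34 (1.19 to 1.48). That rise sits at the limit of the rule, and it was not called when cells under 10000 UMIs were left out or cells of several classes were counted in each. In supporting cells the change over the whole span was 0.10 (-0.01 to 0.21) and did not meet the rule. Thinned cells with a UMI made up 39.7%, 36.2%, 46.4% and 47.8% of supporting cells and 30.8%, 28.7%, 54.8% and 49.6% of surface epithelium, against 70.6%, 64.8%, 68.4% and 71.3% and 63.4%, 58.3%, 82.0% and 72.8% without thinning. Interstitial cells held 23.8, 9.86, 27.2 and 12.96 CPM, and supporting cells had 4.98, 10.4, 5.60 and 9.80 times as much. Germ cells held 1.06, 1.09, 3.79 and 2.76 CPM, within or below the 3.07 to 9.74 CPM of immune and erythroid cells.

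Lgr5 (chr10:115450314-115587780), the R-spondin receptor known as a stem cell marker of the gut, rose in both epithelial classes. In supporting cells it stood at 7.41 CPM (6.32 to 8.63), 23.1 CPM (21.2 to 25.2), 38.4 CPM (35.7 to 41.3) and 57.3 CPM (51.9 to 63.2). In surface epithelium the levels were 3.02 CPM (2.07 to 4.27), 10.8 CPM (8.78 to 13.1), 23.6 CPM (19.9 to 27.7) and 59.0 CPM (52.2 to 66.3). Each stage lay above the one before it in both classes with no overlap of intervals. Between E11.5 and E14.5 the log2 change was 2.95 (2.69 to 3.22) in supporting cells, 7.74-fold, and 4.29 (3.76 to 4.86) in surface epithelium, 19.5-fold. Irx3, the supporting rule gene given above, also stood higher at each later stage in surface epithelium, from 4.91 to 77.0 CPM, and its part in the rise of Lgr5 was not tested. The supporting level was 2.45, 2.15, 1.63 and 0.972 times that of surface epithelium in stage order, and at E14.5 the intervals of the classes overlapped. After thinning, 3.81%, 8.77%, 14.6% and 20.5% of supporting cells and 1.09%, 5.30%, 8.92% and 23.6% of surface epithelium cells had a Lgr5 UMI, and 8.34%, 20.1%, 27.6% and 41.3% and 3.75%, 12.2%, 22.5% and 41.8% without thinning. In both classes the median UMIs per cell had their lowest value in the E14.5 library.

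Lgr5 was close to absent elsewhere. Interstitial cells gave 0 UMIs at both of the early stages, then 4 at E13.5 and 5 in the last library. Against the limit of 3 UMIs that a count of 0 allows over the class, supporting cells were at least 9.97-fold higher at E11.5 and at least 23.5-fold higher at E12.5. Germ cells held 0.396, 0.229, 0.549 and 1.13 CPM. Lgr4, the related R-spondin receptor, had another distribution, with 94.8 to 116 CPM in supporting cells, 71.7 to 90.3 in surface epithelium, 50.1 to 66.3 in interstitial cells and 16.6 to 23.4 in germ cells. It met the rule between stages in none of the 4 classes.

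Axin2 (chr11:108917828-108950783), the member used most widely as a readout of beta-catenin activity, rose in supporting, interstitial and germ cells. In supporting cells it stood at 16.3 CPM (14.6 to 18.03), 36.3 CPM (33.8 to 38.8), 49.3 CPM (46.2 to 52.5) and 75.2 CPM (68.9 to 81.9), a log2 change of 2.21 (2.01 to 2.41) or 4.62-fold, with each stage above the last. Surface epithelium began higher, at 41.1, 73.4, 57.3 and 71.5 CPM, and its log2 change of 0.80 (0.59 to 1.01) did not meet the rule. The supporting level was 0.396, 0.494, 0.861 and 1.05 times that of surface epithelium in stage order, which met the rule for a lower level at E11.5 and E12.5. Germ cells held 18.6, 38.1, 42.0 and 48.0 CPM, a log2 change of 1.37 (1.12 to 1.62). With the germ cell libraries set on a median-of-ratios scale, which shifts log2 changes in that class by -0.40, the change was 0.97 and fell short of the rule. Interstitial cells held 12.9, 25.3, 18.1 and 27.5 CPM, and their change of 1.09 (0.55 to 1.64) came to 1.21 on that scale, where all changes in the class shift by 0.11. Thinned cells with an Axin2 UMI made up 7.94%, 16.2%, 19.4% and 31.3% of supporting cells and 8.51%, 15.6%, 18.9% and 19.6% of germ cells, beside 2.12% of immune and erythroid cells. Without thinning they made up 19.96%, 33.2%, 40.8% and 54.0% and 42.6%, 60.8%, 61.8% and 47.2%, and the order of the germ cell shares at E13.5 and E14.5 differed from that at matched depth.

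Promoter sequence is shown for Axin2, the target that rose, and for Wnt4, the ligand that was at least 4.49 times higher in supporting cells than in surface epithelium in every library. Both are the 250 bases before the annotated start in RefSeq, build GRCm38.p6, written 5′ to 3′ on the plus strand. The Axin2 window is chr11:108920099-108920348 and the Wnt4 window chr4:137277385-137277634. They were searched on both strands for CTTTGAT and CTTTGAA, forms of the site that TCF and LEF factors bind. With no match, no base is in capitals. The Axin2 window lies inside the annotated span of the gene, before a start further in.
Axin2: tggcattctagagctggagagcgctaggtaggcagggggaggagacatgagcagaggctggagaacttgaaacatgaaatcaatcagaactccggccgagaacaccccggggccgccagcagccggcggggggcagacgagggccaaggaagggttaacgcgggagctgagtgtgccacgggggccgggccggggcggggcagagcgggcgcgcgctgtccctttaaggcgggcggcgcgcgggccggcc
Wnt4: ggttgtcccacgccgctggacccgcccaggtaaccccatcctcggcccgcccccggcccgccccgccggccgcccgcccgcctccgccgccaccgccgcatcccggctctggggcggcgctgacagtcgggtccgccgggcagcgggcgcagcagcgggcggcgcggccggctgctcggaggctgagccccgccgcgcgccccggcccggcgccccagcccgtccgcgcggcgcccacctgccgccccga
Neither window holds these letters, nor does any of the 8 windows listed for Axin2, Wnt4, Wnt6, Rspo1 and Lef1. Among all 32851 RefSeq windows of this length 7.48% hold them. G and C made up 69.2% of the Axin2 window and 85.2% of the Wnt4 window.

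Znrf3 (chr11:5276329-5444847), whose product removes Frizzled receptors and is the counterpart of R-spondin, was low in all classes, at 8.13 to 10.8 CPM in supporting cells, 7.37 to 10.03 in surface epithelium and 6.69 to 9.06 in interstitial cells. In these 3 classes its change between E11.5 and E14.5 had an interval that included 0. In germ cells the levels were 3.04 CPM (1.93 to 4.56), 6.93, 10.3 and 12.05 CPM (10.97 to 13.2), a log2 change of 1.99 (1.38 to 2.66) that stayed under the minimum of 20 CPM. On the median-of-ratios scale it was 1.59. The supporting cells had 3.55 times the germ cell level at E11.5 and 0.675 times at E14.5. Rnf43, the related enzyme, was at 1.66, 5.30, 9.69 and 8.99 CPM in supporting cells and 0 to 0.236 in germ cells.

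Lef1 (chr3:131110297-131224357) was present in supporting, surface epithelium and germ cells at like levels with lower levels at E13.5 and E14.5 than at E12.5. Its levels were 78.0, 78.3, 57.4 and 46.6 CPM in supporting cells, 82.7, 91.5, 58.1 and 36.5 in surface epithelium, 53.1, 71.2, 53.0 and 41.6 in germ cells and 28.3, 33.5, 22.3 and 17.8 in interstitial cells. In each class the level at E14.5 was the lowest of the 4. It fell by the rule in surface epithelium, with a log2 change of -1.18 (-1.42 to -0.94). The changes of -0.74 (-0.92 to -0.57) in supporting cells, -0.67 (-1.20 to -0.15) in interstitial cells and -0.35 (-0.51 to -0.19) in germ cells did not meet it. Supporting cells had 2.76, 2.34, 2.57 and 2.62 times the interstitial level, which met the rule in every library. The thinned shares of cells with a UMI were 31.9%, 33.6%, 23.8% and 21.7% in supporting cells and 34.5%, 36.7%, 25.9% and 15.8% in surface epithelium. Of the other TCF genes, Tcf7l2 was at 55.4, 67.9, 75.9 and 85.7 CPM in supporting cells and 0.744 to 2.10 in germ cells, and Tcf7l1 at 10.2 to 17.04 CPM in supporting cells and 32.0 to 46.3 in interstitial cells.

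Sfrp1 (chr8:23411383-23449632) was highest in interstitial cells in all 4 libraries. Interstitial cells held 185 CPM (172 to 199), 216 CPM (199.7 to 233), 344 CPM (329 to 359) and 426 CPM (401 to 452). That was 21.1, 13.6, 32.7 and 18.2 times the supporting level in stage order, the only member lower in supporting than in interstitial cells by the rule in all 4 libraries. Each later stage was above the last, and the log2 change of 1.202 (1.07 to 1.34) met the rule, though it was not called when class rules were read from cells thinned to 5000 UMIs. The share of thinned interstitial cells with a UMI was 53.8%, 55.02%, 69.9% and 80.7%. Of the rule genes of this class, Col1a1 stood at 226, 205, 396 and 570 CPM in it and Tcf21 at 153, 133, 239 and 127. The perivascular genes Rgs5, Notch3 and Cspg4 together gave 74.1, 85.8, 38.1 and 33.6 CPM. The part of such differences in the rise of Sfrp1 was not tested. Surface epithelium held 35.0, 38.2, 22.8 and 28.0 CPM of Sfrp1, a log2 change of -0.32 (-0.62 to -0.03). Supporting cells held 8.76, 15.8, 10.5 and 23.4 CPM and germ cells 11.4, 11.7, 12.46 and 12.9. The supporting level at E14.5 was 2.67-fold that at E11.5 and met the rule, with values that did not move in 1 direction over the stages. In supporting cells that carried all 3 rule genes it went from 8.33 to 17.6 CPM, under the minimum. Immune and erythroid cells held 1.28 to 18.4 CPM of Sfrp1 over the stages. The part of free RNA in the supporting change was not tested. Interstitial check genes are given beside Sfrp1 for supporting cells at E11.5 and E14.5. Dcn, a matrix proteoglycan, stood at 3.10 and 26.4 CPM, the collagen Col3a1 at 21.1 and 92.6, Pdgfra at 7.59 and 9.70, and Nr2f2 at 57.5 and 47.9. Their part in the change of Sfrp1 was not tested.

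**Figure D2:**
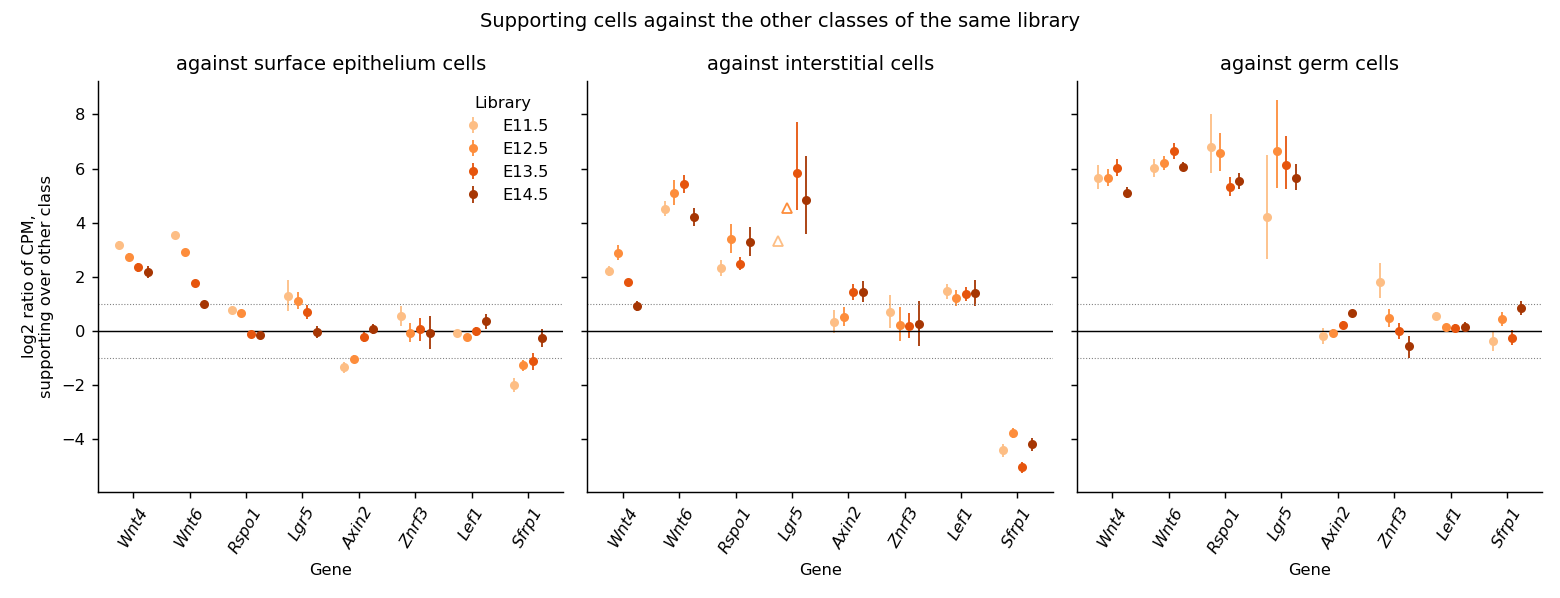
Log2 ratio of the CPM in supporting cells to that in surface epithelium, interstitial or germ cells of the same library, for the 8 genes and 4 libraries. Bars are exact 95% intervals, open triangles are lower bounds against 0 UMIs, and dotted lines mark a ratio of 2 in either direction. Against surface epithelium the ratio of Wnt6 is 11.6, 7.49, 3.43 and 2.005 in stage order, and Sfrp1 is below 0 against interstitial cells in every library.

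Counted over the set, supporting cells were higher than surface epithelium in all 4 libraries for 2 of the 8 genes, Wnt4 and Wnt6. Of 5305 genes tested, 3.62% were higher in supporting cells in this way and 4.02% lower, with 0 members lower. Against interstitial cells 3 members were higher (Wnt6, Rspo1 and Lef1) and 1 lower (Sfrp1), where 6.22% and 7.24% of 5511 genes were. Against germ cells Wnt4, Wnt6 and Rspo1 were higher and 0 members lower, where 20.6% and 9.28% of 5507 genes were. The minimums were met in every library by 6, 5 and 4 of the 8 members in these 3 comparisons. Lgr5 and Znrf3 met them in none of the 3, since Lgr5 was under 20 CPM in every class at E11.5 and Znrf3 at all stages. Wnt6 lost its call against surface epithelium under 4 alternatives that kept the ratio of 2, its E14.5 ratio being 2.005.

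Between E11.5 and E14.5, 3 members rose in supporting cells (Lgr5, Axin2 and Sfrp1) and 0 fell, where 6.32% of 6072 genes tested were higher and 3.51% lower. All 3 reached the minimum of 20 CPM at E14.5 and not at E11.5, so the count of members tested (7 of 8) is not independent of their rise. Sfrp1 went from 8.76 to 23.4 CPM in supporting cells, beside 1.28 to 18.4 CPM over the stages in immune and erythroid cells. Those cells held at most 3.07 CPM of Lgr5 and 4.35 of Axin2. In surface epithelium Wnt6, Rspo1 and Lgr5 rose and Lef1 fell, where 4.86% of 5862 genes were higher and 1.91% lower. In interstitial cells Axin2 and Sfrp1 rose and 0 members fell, against 3.84% and 3.28% of 6091 genes. In germ cells Axin2 rose and 0 members fell, against 22.6% and 8.38% of 5717 genes. There 2 members met the minimums, and the median log2 change of all genes tested was 0.29. The call of 1 member is to be read against these shares. Lgr5 in surface epithelium and Axin2 in interstitial and germ cells also reached 20 CPM at E14.5 and not at E11.5.

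**Figure D3:**
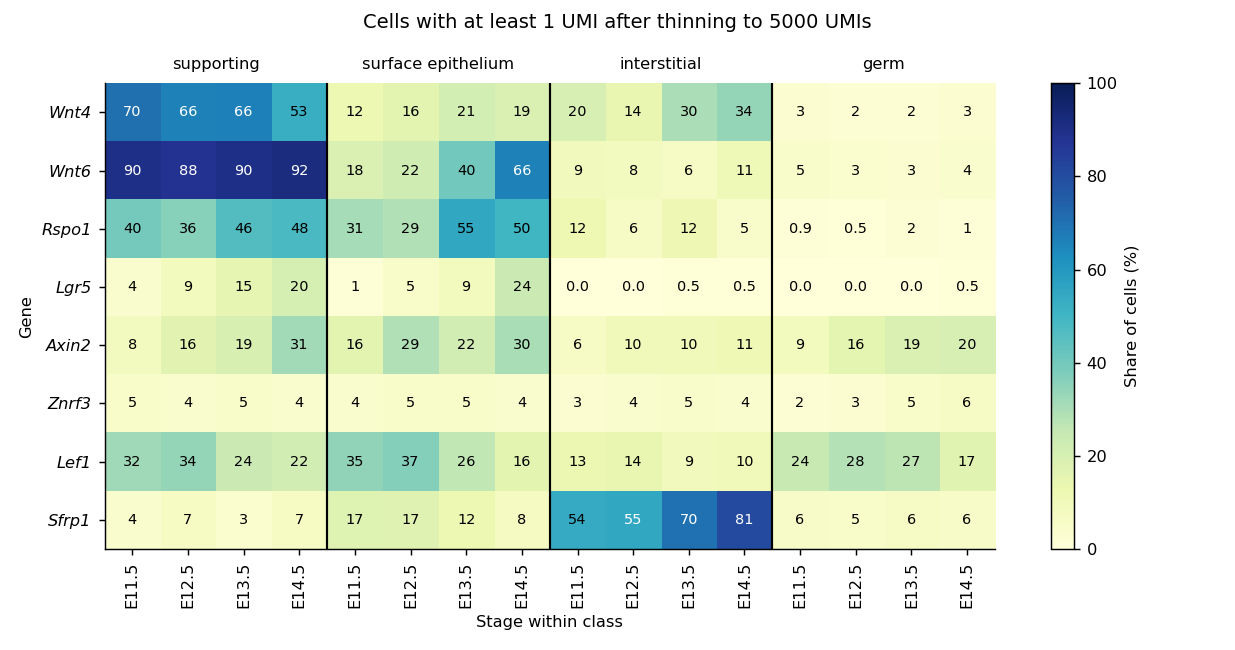
Share of cells (%) with at least 1 UMI of each gene after every cell was thinned to 5000 UMIs, by class and stage. Rows are genes, columns are the 16 groups of cells, and darker cells of the grid are higher shares. Wnt6 is found in 89.99% of E11.5 supporting cells, and its share in surface epithelium runs from 18.4% to 66.2%.

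The genes were also read together in single cells, with every cell thinned to 5000 UMIs so that depth was equal. In the E14.5 surface epithelium, 28.9% (23.7 to 34.6) of the 280 cells with a Wnt6 UMI had a Lgr5 UMI, against 13.3% (8.19 to 19.97) of the 143 cells without one. At E13.5 the shares were 15.3% (10.5 to 21.3) and 4.61% (2.48 to 7.75). In E14.5 supporting cells, Lgr5 was found in 22.0% (18.5 to 25.8) of cells with Wnt6 and 4.08% (0.498 to 13.98) of the 49 without. Axin2 was found in 42.0% (33.0 to 51.4) of E14.5 supporting cells with a Lgr5 UMI and in 28.6% (24.5 to 32.9) of those without. In E14.5 surface epithelium the same shares were 33.0% (23.9 to 43.1) and 29.4% (24.5 to 34.7), with overlapping intervals. Rspo1 was found in 41.8% (39.1 to 44.5) of E11.5 supporting cells with Wnt6 and 21.3% (15.1 to 28.8) of those without. At E12.5 the shares were 37.6% (35.2 to 40.1) and 26.1% (20.3 to 32.5), and at E14.5 49.6% (45.3 to 54.0) and 28.6% (16.6 to 43.3). At E13.5 they were 47.2% (44.6 to 49.9) and 39.4% (31.6 to 47.5), with overlapping intervals. Sfrp1 went the other way, in 5.26% (3.53 to 7.52) of E14.5 supporting cells with Wnt6 and 22.4% (11.8 to 36.6) of those without, and in 4.29% (2.23 to 7.37) against 13.99% (8.76 to 20.8) of E14.5 surface epithelium cells. The other splits named had intervals that did not overlap, but cells of 1 library are not replicates. The intervals of 202 of the 224 splits made in supporting cells overlapped, and the splits made in surface epithelium are not counted here. Supporting rule genes were also found in other cells, Irx3 at 52.1 to 100 CPM in endothelial and Runx1 at 42.2 to 73.0 CPM in immune cells. Of the E14.5 supporting cells, 2.93% met the endothelial rule and 0.688% the immune rule. The part of such cells in these splits was not tested.

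Supporting cells also differed among themselves by the rule genes they carried. At E13.5 Lgr5 was at 42.3 CPM in the 528 cells with Fst and Irx3 only and 41.2 in the 759 with all 3 genes. It was at 31.8 CPM in the 141 cells without Fst and 8.18 in the 127 with Fst and Runx1 only. At E14.5 the values were 54.2, 62.7, 55.9 and 29.7 CPM, the last from 43 cells. Wnt4 had another order at E13.5, at 349 CPM in cells with Fst and Runx1 only and 322 with all 3 genes. It was at 264 CPM with Fst and Irx3 only and 151 in those without Fst. The cells with Fst and Runx1 only were 777 of the 1498 supporting cells at E11.5 and 43 of 581 at E14.5. Within each of the 4 subsets Lgr5 was higher at E14.5 than at E11.5, with 9.21 and 62.7 CPM in cells with all 3. Within each of them Axin2 was higher as well, with 16.1 and 87.9 CPM in cells with all 3.

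The wider pathway was read from lists of 64 measured genes: other ligands, R-spondins and LGR receptors, Frizzled and other receptors, intracellular parts, inhibitors and common targets. In supporting cells 17 of them met the minimums, 1 rose and 0 fell from E11.5 to E14.5, where 6.32% of all genes tested were higher and 3.51% lower, so the count is near the background. They had a median log2 change of 0.46 beside -0.03 over all genes tested. The gene that rose was Nkd1, a target that restrains WNT signalling, at 26.8, 75.7, 104 and 119.8 CPM and a log2 change of 2.16 (2.01 to 2.32). Of the 7 listed targets, the others over the minimums were Sp5, a transcription factor induced by beta-catenin, at 39.4, 102, 100.3 and 77.2 CPM, Tnfrsf19 at 73.0, 92.5, 123 and 102 CPM and Ccnd1, a cyclin, at 15.3, 21.0, 17.4 and 20.1 CPM. Nkd2, under the minimums, was at 1.21, 6.01, 12.48 and 15.5 CPM. Sp5 had its lowest supporting level at E11.5, and the log2 change of 0.97 (0.81 to 1.13) to E14.5 was just under the rule. At the step from E11.5 to E12.5, Nkd1 and Sp5 met the rule, of 4 targets over the minimums. Of 5808 genes tested at that step, 2.36% were higher and 2.2% lower. The other lists had 0 genes that rose or fell there.

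In surface epithelium 0 of 21 listed genes over the minimums rose and 1 fell, the receptor Fzd2, from 32.9 to 16.1 CPM, where 4.86% of all genes tested were higher and 1.91% lower. Nkd1 was there at 103, 117, 133 and 118 CPM and Sp5 at 102, 124, 106 and 114 CPM. In interstitial cells 1 of 23 rose and 4 fell, where 3.84% of all genes tested were higher and 3.28% lower. The gene that rose was Nkd2, at 3.72, 9.20, 19.3 and 27.1 CPM, which met the minimum through its later level alone. The 4 that fell were the antagonist Sfrp2 at 71.6, 15.1, 26.2 and 29.6 CPM, Shisa3, an inhibitor of receptor maturation, at 27.8, 2.63, 1.68 and 1.21 CPM, Bmp4 at 33.2, 4.6, 6.04 and 9.72 CPM and Ccnd1 at 33.2, 40.7, 27.2 and 14.6 CPM. Wnt5a, a ligand known for signalling without beta-catenin, was at 96.7 to 146 CPM in interstitial cells, 55.6 to 79.2 in surface epithelium and 9.52 to 19.4 in supporting cells.

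In germ cells 6 of 15 listed genes over the minimums rose and 1 fell, where 22.6% of all genes tested were higher and 8.38% lower. All 6 were under 20 CPM at E11.5 and met the minimum only through their level at E14.5, so the count depends on their rise. The 3 targets among them were Ccnd1 at 2.64, 5.44, 29.2 and 113 CPM, Sp5 at 2.91, 2.46, 11.1 and 28.4 CPM and Nkd1 at 4.76, 5.27, 12.95 and 37.9 CPM. Their log2 changes were 5.41 (4.78 to 6.12), 3.29 (2.68 to 3.97) and 2.99 (2.52 to 3.51). The others that rose were Bcl9, a cofactor of beta-catenin, from 7.40 to 21.1 CPM, the co-receptor Lrp6 from 13.6 to 29.2 and Axin1 from 12.6 to 26.5. Dvl2, which relays the signal from Frizzled, fell from 35.4 to 13.7 CPM. On the median-of-ratios scale Lrp6 and Axin1 no longer reach a ratio of 2, since every germ cell change is lower by 0.40. In the E14.5 germ cells Nkd1 stood at 37.9 CPM and Wnt6 at 8.61, where the supporting cells of that library had 119.8 and 578. Porcn, which makes WNT ligands ready for export, was at 43.6 to 80.1 CPM in germ cells and 1.48 to 1.76 in supporting cells, and Wls, the carrier of WNT ligands, had the opposite order with 1.65 to 3.10 and 64.9 to 89.1 CPM.

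Between classes, 0 of the listed genes were higher in supporting cells than in surface epithelium in all 4 libraries and 2 were lower, Wnt5a and Ccnd1. Of all genes tested, 3.62% were higher and 4.02% lower. In the order of the lists above, 3, 1, 2, 8, 1 and 4 listed genes met the minimums in every library. Compared with interstitial cells 2 were higher, the targets Sp5 and Tnfrsf19, and 3 lower, Wnt5a, the receptor Fzd2 and Tcf7l1. There 3, 1, 3, 8, 1 and 4 listed genes met the minimums, and 6.22% of all genes tested were higher and 7.24% lower. Sp5 stood at 39.4 to 102 CPM in supporting cells, 102 to 124 in surface epithelium and 10.2 to 10.9 in interstitial cells. Compared with germ cells 9 were higher (Wnt5b, Wls, Lgr4, Gsk3b, Tcf7l2, Bcl9, Shisa2, Nkd1 and Sp5) and 1 lower, Porcn. Here 3, 1, 1, 6, 1 and 3 listed genes met the minimums, and 20.6% of all genes tested were higher and 9.28% lower. Fzd2 was at 29.6 to 53.3 CPM in interstitial and 14 to 17.1 in supporting cells.

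**Figure D4:**
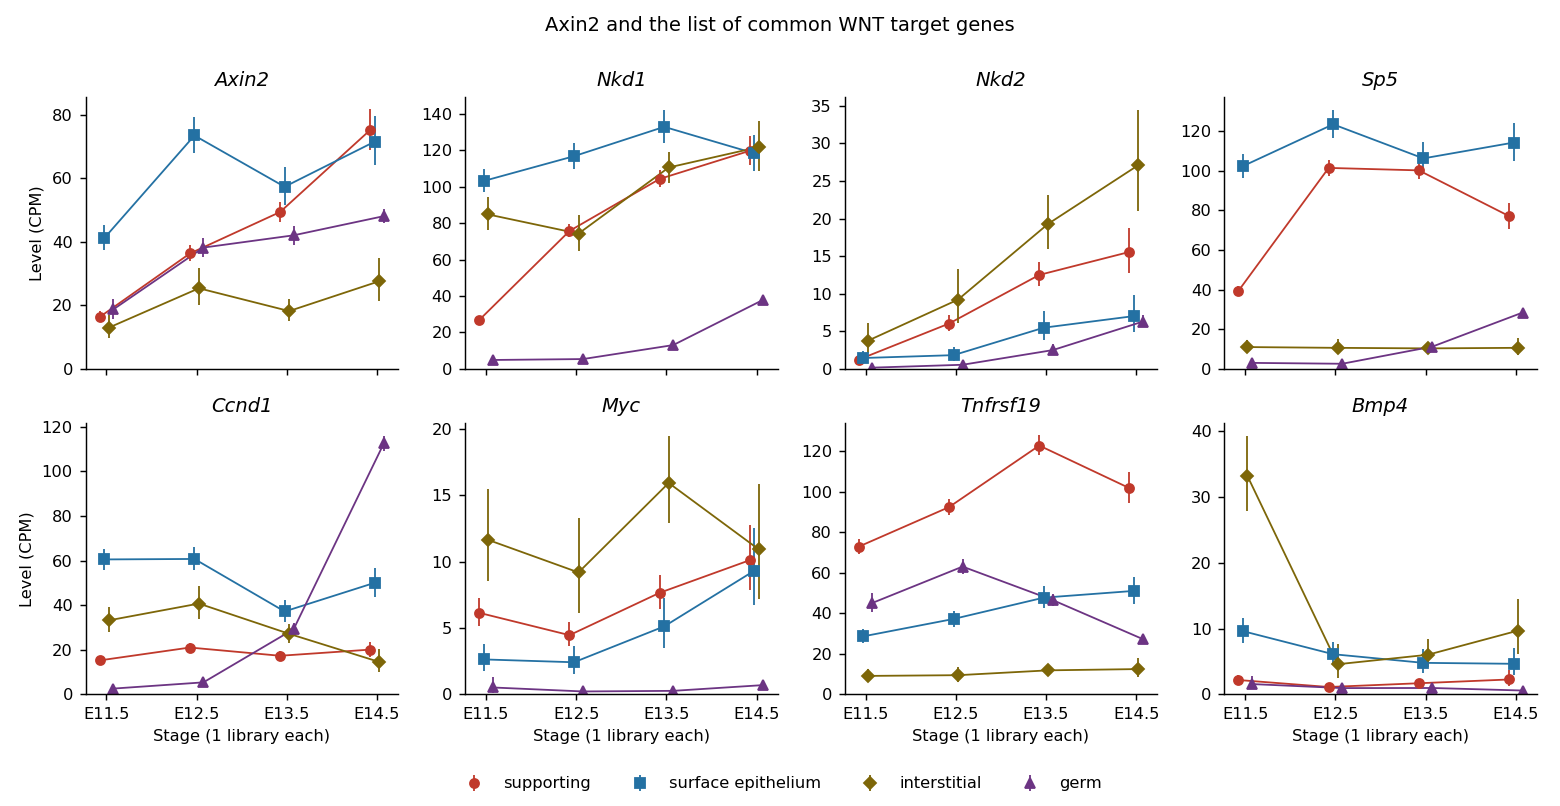
Level in CPM (linear axis from 0, 1 panel per gene with its own scale) of Axin2 and of the 7 listed WNT target genes over the stages, in supporting, surface epithelium, interstitial and germ cells. Bars are exact 95% Poisson intervals. Axin2 and Nkd1 are higher at each later stage in supporting cells, and Ccnd1 in germ cells goes from 2.64 to 113 CPM.

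Genes of like pattern were sought over the 16 class-by-stage levels, as Pearson's r of log2(CPM + 1) among 8162 genes with at least 20 CPM in at least 1 of them. The 16 points share 4 libraries, so these values are a description. Wnt4 was most like Trim62 (r = 0.99), Ndrg1 (r = 0.98) and Ppt1 (r = 0.98), and Wnt6 most like Rph3al (r = 0.99), Gm17660 (r = 0.98) and Lgals7 (r = 0.98). Rspo1 was most like Reep1 (r = 0.97), Bmyc (r = 0.97) and B4galt4 (r = 0.97). The genes nearest to Lgr5 were Nrap (r = 0.98), Sbspon (r = 0.97) and Aldh1a1 (r = 0.97), of which Aldh1a1 encodes a retinaldehyde dehydrogenase. Among the genes nearest to Sfrp1 were Frem1 (r = 0.98) and Phlda3 (r = 0.97). For Axin2, Znrf3 and Lef1 the nearest genes were less alike: Tfdp2 (r = 0.88), Zc3hav1l (r = 0.88) and Gpi1 (r = 0.87). Within the set, the patterns of Wnt6 and Rspo1 (r = 0.90) and of Wnt6 and Lgr5 (r = 0.90) were the most alike. Those of Lef1 and Sfrp1 (r = -0.78) were the least alike.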

How the data were processed

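The deposited table holds natural log values: per the values themselves, ln of 1 plus the share of a cell's UMIs that fall to a gene, scaled to 10000. Undoing the log gave whole UMIs for 100% of the values above 0 (relative tolerance 1e-06), and all sums here start from those recovered UMIs. Cell Ranger 2.2.0 and mm10 (GRCm38) are named per the submitters' processing notes; annotation, cell calling and filters are not given in the sources used here. The prefix of a cell name gives its stage.

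Cells with more than 20% mitochondrial UMIs (5 cells) were left out. A Scrublet-type score per library (2 simulated doublets per cell, assumed rate 0.06, 2000 variable genes, 30 components, seed 1) called 2.16%, 2.42%, 1.88% and 1.82% of cells in stage order, and these were removed. That left 4807, 4724, 4750 and 4700 cells. Classes, the size rule, thinning to 5000 UMIs (all cells reached it) and intervals are given where first used. The rule for named genes took the 8 members, up to 3 listed pathway genes per comparison with the largest ratios past the size rule, and the 3 genes nearest in pattern to each member. Other listed genes named in the text were chosen after their values were seen. A check gene and a gene of like pattern are not reported here. The planned split of supporting cells by Foxl2 was not made, since 4 thinned cells had a Foxl2 UMI. The subsets of supporting cells by rule genes were added after the data were seen. The members and lists were chosen with earlier results of these data known. The size rule was tested on simulated data that held Poisson counting error alone. They had no variation between libraries or cells, so that test cannot show how the rule does with such variation. Python 3.11.15, numpy 2.4.6, scipy 1.17.1 and scikit-learn 1.9.0 were used. Alternatives were other class rules, doublet treatment, scaling, minimums and thinning, and 2 chosen after seeing the data.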

Additional observations from a re-analysis of the deposited data

Results flagged for a closer look

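In 4 of the 8 genes the change from E11.5 to E14.5 had opposite signs in 2 classes, with intervals on either side of 0 and log2 changes at least 1 apart. With 1 library per stage the difference between classes was not tested. For Wnt4 the change in surface epithelium was 1.01 above that in supporting cells on the log2 scale, and the change in interstitial cells 1.31 above it. For Wnt6 the change in surface epithelium was 2.54 above that in supporting cells, where the level was highest and close to level over the stages. For Rspo1 the change in interstitial cells was -0.88 (-1.502 to -0.29), and the changes in surface epithelium and germ cells lay 1.91 and 2.26 above it, the germ cell level being at that of free RNA. For Sfrp1 the changes in supporting and interstitial cells lay 1.74 and 1.52 above the change in surface epithelium. The supporting levels of Sfrp1, 8.76 to 23.4 CPM, overlapped the 1.28 to 18.4 CPM of immune and erythroid cells.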

How the results depend on the processing

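No paired analysis was possible because the stages compared have 1 library each and share fewer than 2 replicate numbers. Classes were compared within each library, and a test of classes paired by library was not run. No log2 change of a member that met the rule reversed under the alternatives run. The count of members higher in supporting cells than in surface epithelium in every library went from 2 to 1, Wnt4 alone, when cells of several classes were counted in each, on the median-of-ratios scale, without removal of doublets, with all 3 rule genes required and at a ratio of at least 4. The germ cell count of 1 became 0 on the median-of-ratios scale and at a ratio of 4, 3 with no CPM minimum (Axin2, Rspo1 and Znrf3) and 2 as a mean of ln values (Axin2 and Lef1). At a ratio of 4 the interstitial count of 2 became 0 and the surface epithelium count of 4 became 2 (Wnt6 and Lgr5). The other counts stayed within 1.5 times, though not always with the same genes. Lef1 lost its call against interstitial cells when class rules were read from thinned cells, when cells of several classes were counted in each and at a ratio of 4. Sfrp1 lost its call in supporting cells as a mean of ln values, at a ratio of 4 and with all 3 rule genes required. In interstitial cells, reading class rules from thinned cells replaced Sfrp1 by Wnt6, and a mean of ln values replaced Axin2 by Wnt4. Lgr5 and Axin2 kept their call in supporting cells, and Lgr5 and Wnt6 theirs in surface epithelium, under every alternative run. Of 73 member levels of at least 20 CPM, the largest move was 2.19-fold, for Wnt6 in interstitial cells at E14.5 with cells of several classes counted in each. Other class rules moved a level by at most 1.80-fold, and leaving out blood and vessel cells, added after seeing the data, by at most 1.05-fold. Depth limits Znrf3 and Lgr5 most, with levels near 10 CPM or below in most groups.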

Other observations

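Cells that met the rules of both supporting cells and surface epithelium, and so belonged to neither class above, numbered 38, 103, 158 and 225 over the stages. Wnt6 was at 252, 234, 300.4 and 443 CPM in them, between the levels of both classes at every stage. Wnt4 was at 165, 145, 146 and 76.3 CPM and Axin2 at 19.4, 59.5, 54.6 and 75.3 CPM. Lgr5 was at 3.63, 22.2, 48.1 and 86.9 CPM, and its E14.5 level of 86.9 CPM (76.6 to 98.3) lay above both 57.3 CPM (51.9 to 63.2) in supporting cells and 59.0 CPM (52.2 to 66.3) in surface epithelium, with no overlap of intervals. These were 225 cells of 1 library. After thinning, 2.63%, 12.6%, 24.7% and 32.9% of them had a Lgr5 UMI.

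Endothelial cells outside the 4 classes, 153, 177, 90 and 43 over the stages, held Lef1 at 30.5, 19.9, 24.3 and 20.1 CPM and Axin2 at 5.14, 6.10, 6.31 and 11.7 CPM. Their Wnt6 went from 20.5, 6.42 and 13.52 to 46.9 CPM. Cells that met no class rule held 244, 166, 155 and 82.4 CPM of Wnt6 and 40.7, 60.1, 111 and 101 CPM of Sfrp1.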
